A study of Mus musculus with 3 samples.

Results

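The guanylate-binding proteins are 9 mouse genes, Gbp2 to Gbp10, taken by gene symbol from the deposited gene tables. They are 9 of 55536 annotated gene rows and 9 of 22028 protein-coding genes, and every one had expected counts in every library. The RNA came from the cytosolic fraction of C57BL/6J bone-marrow-derived macrophages, sequenced as total RNA after ribosomal RNA depletion. The cells were exposed to Lipid A at 100 ng/ml for 12 h, kept without it for 12 h, and given 100 ng/ml once more for 120 min. Lipid A is the part of bacterial lipopolysaccharide that anchors it in the outer membrane. All 3 libraries belong to this 1 group, labelled as biological replicates 1, 2 and 3, and no untreated or singly treated cells are analysed here, so levels are described within the group and no response to Lipid A is measured. Sex and age are recorded as not collected. The replicates share 1 donor entry and no label calls them separate animals or cultures. Every p-value below therefore asks only whether these libraries differ beyond counting error, and such a difference may be technical. The p-values depend on the number of counts as well as on the spread, so they do not rank genes by spread.

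Guanylate-binding proteins are large GTPases of the dynamin superfamily that interferons induce. Sensing of Lipid A by Toll-like receptor 4 makes macrophages secrete interferon beta, which acts back on the same cells. The proteins assemble on vacuoles that hold parasites or bacteria and on bacterial surfaces, disrupt them, and aid the detection of bacterial lipopolysaccharide by caspase-11 in the cytosol. Mouse Gbp2 and Gbp5 are anchored in membranes by prenylation, a lipid added at the end of the protein.

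Expected counts summed to 29376859 in replicate 1, 64822118 in replicate 2 and 37665844 in replicate 3. TPM is a length-normalised level, taken by the authors over all rows of the table. Protein-coding genes held 32.5%, 26.5% and 27.1% of it in replicates 1, 2 and 3. All 8 macrophage marker genes examined, among them Lyz2 and Adgre1, reached 1 TPM in every library. The summed TPM of T and NK cell markers lay between 0.02 and 0.07, that of B cell markers between 0.01 and 0.07 and that of fibroblast markers between 0.02 and 0.03. Epithelial markers were listed at 0.

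The genes lie in 2 clusters, which differ in how readily their reads can be told apart. Gbp5, Gbp7, Gbp3 and Gbp2 stand in this order on the plus strand of chromosome 3 (mm10), between 142493978 and 142638008, with Gbp2b between Gbp3 and Gbp2. Gbp8, Gbp9, Gbp4, Gbp10 and Gbp6 stand on the minus strand of chromosome 5, between 105014150 and 105293698. In pairwise alignments of the coding sequences of the most abundant complete coding transcripts (GENCODE release M21), Gbp6 and Gbp10 were identical at 98.4% of 1836 aligned bases. Other pairs among the chromosome 5 genes were identical at 90.6% to 92.9%. On chromosome 3 the closest members were Gbp3 and Gbp7 at 79.5%, and the lowest identity of all pairs was 65.8%, between Gbp4 and Gbp5.

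The coding ends were compared because a cysteine codon (TGC or TGT) at the fourth position from the end, stop codon not counted, belongs to the known signal for prenylation. The last 30 coding bases, taken from the GENCODE M21 transcript sequences, are shown for 2 members that have such a codon and for 4 that do not, with the codon at that position in capitals.
Gbp2: aaatcgtctgggaagTGCactatactctga
Gbp5: agacatcatcatgacTGTgttataagctaa
Gbp3: ctgaaattcctcggcTCActaagtagttag
Gbp7: cagaattcagacaaaGTTagaaaactctaa
Gbp6: taccttgtccgttatCTAaagcatttatga
Gbp10: taccttgtccgttatCTAaagcatttatga
Gbp2 and Gbp5 were the 2 members with a cysteine codon there, and the other 7 had another codon. Gbp6 and Gbp10 had the same 30 bases. Gbp2 and Gbp5 together held 54.5%, 55.5% and 57.1% of the summed TPM of the members in replicates 1, 2 and 3 (55.7% ± 1.30, SD, n = 3).

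Promoters are shown because interferon acts on these genes through short sequence motifs. The RefSeq promoter table (GRCm38.p6, 250 bases before to 50 after the start) matched 4 of the 9 members, Gbp2, Gbp3, Gbp5 and Gbp7, all on the plus strand of chromosome 3. The interferon-stimulated response element was searched on both strands as GAAA, any 2 bases and GAAA. The 4 members have 5 windows in the table, since Gbp3 has 2. The motif was in 4 of these 5, 1 for each gene, and in 3.44% of all 32851 promoters, and the second window of Gbp3 did not hold it. Each stretch below has the match, which reads on the minus strand, in capitals. They lie at chr3:142620574-142620643 for Gbp2, chr3:142559969-142560038 for Gbp3, chr3:142496739-142496808 for Gbp5 and chr3:142530253-142530322 for Gbp7.
Gbp2: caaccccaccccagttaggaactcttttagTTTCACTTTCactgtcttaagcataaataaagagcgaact
Gbp3: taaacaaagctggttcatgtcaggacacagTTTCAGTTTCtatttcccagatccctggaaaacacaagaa
Gbp5: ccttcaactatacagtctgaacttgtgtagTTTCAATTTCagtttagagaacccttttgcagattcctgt
Gbp7: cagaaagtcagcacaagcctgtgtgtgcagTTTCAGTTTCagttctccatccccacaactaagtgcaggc
The match ended 50 bases before the RefSeq start in Gbp2, 36 in Gbp3, 156 in Gbp5 and 44 in Gbp7. The window of Gbp5, chr3:142496684-142496983, lies inside the gene as annotated by GENCODE, which begins at 142493978. Gbp3 held a second match, TTTCTATTTC, that overlaps the first in the letters TTTC. An NF-kappaB-type motif, GGG, any 2 bases, TT, any base and CC on either strand, was found in Gbp5 and in 4.79% of all promoters. It is shown in capitals below, at chr3:142496827-142496896, and does not overlap the match above.
Gbp5: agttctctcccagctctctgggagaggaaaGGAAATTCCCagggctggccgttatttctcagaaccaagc
These letters are descriptions of the windows and do not show binding.

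The family was abundant and uneven. Gbp2 (ENSMUSG00000028270.12, 142620602 to 142638008), which is recruited to vacuoles of Toxoplasma, stood highest with 361, 206 and 240 TPM in replicates 1, 2 and 3 (269 ± 81.8, SD, n = 3). It was the protein-coding gene of rank 120 by mean TPM. Further sets of 3 values follow the same order of replicates. Gbp5 (ENSMUSG00000105504.4, 142493978 to 142522344), which is linked to activation of inflammasomes, had 206, 129 and 139 TPM (158 ± 41.8, rank 265). Both were highest in replicate 1, and the range of Gbp5 overlapped that of Gbp2 only at the end, where Gbp5 in replicate 1 reached the level of Gbp2 in replicate 2.

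Gbp6 (ENSMUSG00000104713.4, 105270702 to 105293698) had 171, 95.9 and 96.1 TPM (121 ± 43.5), and Gbp3 (ENSMUSG00000028268.14, 142560026 to 142573209) had 128, 74.3 and 77.5 TPM (93.2 ± 30.02). These members thus reached rank 365 and rank 496. Gbp7 (ENSMUSG00000040253.15, 142530342 to 142550149), which is recruited to vacuoles and aids assembly of the phagocyte oxidase there, had 60.7, 36.3 and 40.8 TPM (45.9 ± 13.0). Gbp4 (ENSMUSG00000079363.7, 105115767 to 105139586) had 54.7, 28.0 and 30.7 TPM (37.8 ± 14.7). Gbp9 (ENSMUSG00000029298.15, 105077630 to 105139539) had 37.3, 24.0 and 29.1 TPM (30.1 ± 6.68). In each of these genes replicate 1 was the high library, and the levels of Gbp7, Gbp4 and Gbp9 overlapped.

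Gbp8 (ENSMUSG00000034438.16, 105014150 to 105139540) had 18.5, 8.61 and 9.64 TPM (12.2 ± 5.41). Gbp10 (ENSMUSG00000105096.1, 105215699 to 105239533) was the lowest member, with 3.67, 0.840 and 1.35 TPM (1.95 ± 1.51), and its mean was 1.095 TPM without replicate 1. The interval that the authors' table gives for Gbp10, at a level the table does not state, ran from 2.97 to 4.27 TPM in replicate 1, from 0.745 to 1.03 in replicate 2 and from 1.00 to 1.79 in replicate 3. Replicate 1 stood above the other libraries beyond these intervals, while replicates 2 and 3 overlapped. In all, 8 of 9 members reached 1 TPM in every library, against 39.1% of protein-coding genes, and the same 8 reached 5 TPM.

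**Figure D1:**
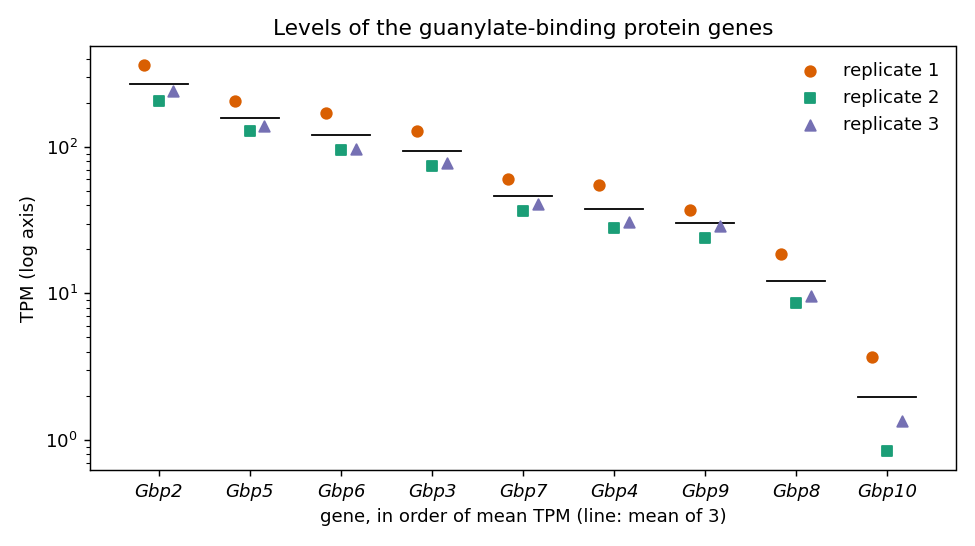
TPM of the 9 genes (vertical, log axis) in replicates 1, 2 and 3, with a line at the mean of the 3 libraries. Gbp2 is highest at a mean of 269 TPM and Gbp10 lowest at 1.95 TPM, and replicate 1 is the highest point for every gene.

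The order from Gbp2 to Gbp10 was the same in all 3 libraries. Between neighbours in that order, the ranges over libraries did not overlap at 3 steps. Gbp3 exceeded Gbp7 by 1.90-fold to 2.11-fold, Gbp9 exceeded Gbp8 by 2.02-fold to 3.01-fold, and Gbp8 exceeded Gbp10 by 5.03-fold to 10.3-fold. At the other 5 steps the ranges overlapped across libraries although the order held within each one. The smallest step was Gbp4 over Gbp9, by 1.06-fold to 1.47-fold. In the second quantification Gbp4 exceeded Gbp9 in 2 of 3 libraries, with 23.3, 16.8 and 15.9 TPM for Gbp4 against 17.0, 16.2 and 16.8 TPM for Gbp9, and the other steps held in all 3 libraries.

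Together the 9 genes had 1041, 602 and 664 TPM (769 ± 237). This was 0.321%, 0.227% and 0.245% of the TPM of protein-coding genes. Within the sum the shares were steady: Gbp2 held 34.7%, 34.1% and 36.1%, Gbp5 19.8%, 21.4% and 20.96%, and Gbp6 16.5%, 15.9% and 14.5%. The 4 genes of chromosome 3 held 72.6%, 73.9% and 74.9% of the sum (73.8% ± 1.15). Gbp10 held 0.353%, 0.139% and 0.203%, the share that varied most relative to its mean. Apart from that of Gbp10, each share varied less relative to its mean than the family's sum did.

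Of family genes outside the 9, Gbp2b had 1.53, 0.380 and 0.550 TPM, although it lies between Gbp3 and Gbp2 and its coding sequence was identical to that of Gbp2 at 82.5% of aligned bases. Gbp11, annotated as a polymorphic pseudogene on chromosome 5, had 7.46, 4.53 and 3.10 TPM. The pseudogene Gbp2-ps was listed at 0. Both expressed genes were highest in replicate 1, as the members were.

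The libraries differed in the family's level beyond counting error. A chi-square test set each gene's rounded expected counts against its mean scaled by the TMM library size, with Benjamini-Hochberg adjustment over 14568 genes. It called 9 of 9 members at an adjusted p below 0.05, and 72.0% of all tested genes, so the call itself was common. The largest adjusted p among members was 1.7e-59, for Gbp10 with 443, 336 and 240 expected counts. All 9 members were highest in replicate 1 on TMM-scaled CPM, the count set against library size, against 29.2% of all tested genes. Leaving out replicate 1 reduced the calls to 5 of 9 (57.1% of all tested genes): Gbp2, Gbp7 and Gbp9 were higher in replicate 3 than in replicate 2 on CPM, and Gbp3 and Gbp6 lower. The other 4, Gbp4, Gbp5, Gbp8 and Gbp10, had adjusted p between 0.154 and 0.816 in that test of replicates 2 and 3.

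On the log2 scale of TMM-scaled CPM + 1, replicate 1 exceeded the mean of the other libraries by a median of 0.54 over the members, against -0.05 over all tested genes. The 4 genes of chromosome 3 lay close together, with Gbp3 at 0.54, Gbp2 at 0.50, Gbp7 at 0.49 and Gbp5 at 0.41. Those of chromosome 5 ranged more widely, with Gbp10 at 1.28, Gbp8 at 0.80, Gbp4 at 0.74, Gbp6 at 0.62 and Gbp9 at 0.30. Replicate 1 stood over 1.5-fold above the others in 4 of 9 members, against 3.16% of all tested genes. The tested genes include those with few counts, in which the added 1 draws the difference towards 0. No share over genes of like level was taken. The coefficient of variation of CPM ran from 13.5% for Gbp9 to 62.4% for Gbp10, beside a median of 16.2% over all tested genes. Between replicates 2 and 3 the members showed no common direction on CPM, with 3 higher in replicate 2 and 6 higher in replicate 3, whereas on TPM all 9 were higher in replicate 3.

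**Figure D2:**
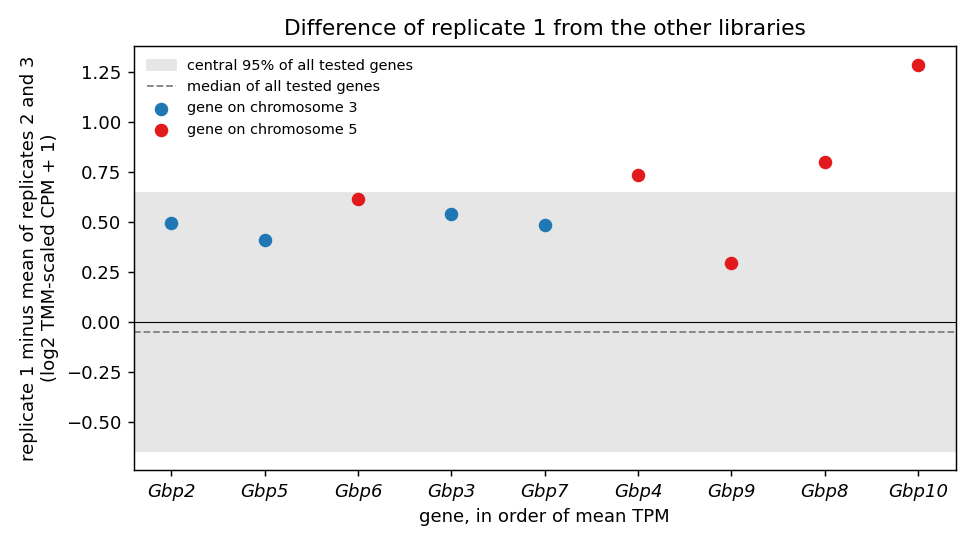
Difference between replicate 1 and the mean of replicates 2 and 3 (vertical, log2 of TMM-scaled CPM + 1) for each gene, with the central 95% and the median of all tested genes as grey band and dashed line. All 9 genes lie above 0, and Gbp4 at 0.74, Gbp8 at 0.80 and Gbp10 at 1.28 lie above the band, which ends at 0.65. The band includes genes with few counts.

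Other measures also moved with replicate 1. It had the fewest counts and the largest protein-coding share of TPM. The endothelial markers summed to 8.08 TPM in replicate 1 against 4.04 and 3.04 TPM in replicates 2 and 3, of which Kdr made up 7.09 TPM in replicate 1, while Cdh5 and Pecam1 stayed below 1 TPM in every library. The part of these measures in the replicate 1 difference was not tested. The neutrophil markers summed to 6.78, 3.39 and 6.61 TPM in replicates 1, 2 and 3, with Ly6g at 0.01 TPM or less. Their sum was thus nearly as high in replicate 3 as in replicate 1. In bulk RNA, fewer cells of a type and less RNA per cell cannot be told apart.

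Most genes examined of interferon and its signalling, which induces the family, were present, with replicate 1 often the high library. Of the 15 genes of interferon and its signalling, 14 reached 1 TPM in every library, all 14 tested were called, against 72.0% of all tested genes, and 11 of them were highest in replicate 1, against 29.2%. Their median difference of replicate 1 from the others was 0.30 on the log2 CPM scale, beside -0.05 over all tested genes. Ifng, the gene of interferon gamma, was the lowest, with 0.0200, 0.0200 and 0.0400 TPM from 1, 3 and 3 expected counts. Ifnb1, the gene of interferon beta, had 17.8, 6.81 and 4.34 TPM, a difference of 1.33 for replicate 1. It was named after its values were seen.

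The immunity-related GTPases are interferon-induced GTPases that act at the same vacuoles. All 7 examined were called (72.0% of all tested genes) and highest in replicate 1 (29.2%), with a median difference of 0.62, against -0.05 over all tested genes. Irgm1, a regulator of the other family members, was the highest on average with 235, 137 and 139 TPM. Tgtp1 was the lowest, with 31.02, 4.82 and 7.02 TPM and the widest difference of the list at 2.19. Its expected counts, 3688.1, 1462.3 and 1247.7, were not whole numbers, so some of its reads were divided between genes. The difference of Tgtp1 depends on that division. Of 8 genes of inflammasomes and pyroptosis, the inflammatory death that guanylate-binding proteins promote, all 8 were called (72.0% of all tested genes) and 6 were highest in replicate 1 (29.2%), with a median difference of 0.27. Il1b, the gene of interleukin 1 beta, stood highest with 279.2, 339 and 197 TPM and so was highest in replicate 2. Il18, the gene of interleukin 18, stood lowest with 31.1, 17.4 and 22.8 TPM.

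Genes of the machinery that directs the proteins to vacuoles showed smaller differences. Of 8 such genes all were called (72.0% of all tested genes) and 4 were highest in replicate 1 (29.2%), with a median difference of 0.09, against -0.05 over all tested genes. Sqstm1, an autophagy receptor, stood highest with 529, 627 and 343 TPM, and Atg16l1, part of the complex that attaches LC3 to membranes, lowest with 4.98, 3.40 and 5.50 TPM. Of 5 prenylation genes, 4 were called (72.0% of all tested genes) and 2 were highest in replicate 1 (29.2%), with a median difference of -0.17. Pggt1b, a subunit of geranylgeranyl transferase I, was the highest with 10.4, 6.38 and 8.68 TPM. Fntb, a subunit of farnesyl transferase, was the lowest with 1.28, 1.36 and 1.32 TPM.

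Many other genes shared the profile of the family over the 3 libraries. The nearest protein-coding genes outside the family, by Euclidean distance between centred log2 CPM profiles, were Resf1, Usp12 and Daxx, each at 0.042. Resf1 had 47.5, 26.5 and 31.1 TPM, Usp12 had 35.4, 19.9 and 21.7 TPM, and Daxx had 79.5, 45.0 and 48.0 TPM. With only 3 libraries such likeness is common, and 280 of 3736 protein-coding genes of at least 10 TPM on average lay within 0.2. The profile is the median over the members, and 7 of the 9 lay within 0.2 of it.

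Both quantifications of the same libraries gave nearly the same levels per gene. Deposited TPM in the second quantification were lower, with a sum of 420, 351 and 330 TPM for the members, against 1041, 602 and 664 TPM in the first. The values were therefore rescaled before comparison, so that protein-coding plus long noncoding genes had the same total in each. After rescaling, the log2 ratio of second over first averaged from -0.10 for Gbp2 to 0.18 for Gbp9 among the 8 members of at least 1 TPM. None of these 8 differed over 2-fold in all libraries, against 0.513% of 8780 such genes lower and 0.273% higher in the second quantification. At 1.5-fold none differed either, against 1.42% of all such genes in either direction. Gbp10, which falls below that level, had ratios of -0.33, 0.07 and -0.12 in replicates 1, 2 and 3, the widest spread of the family.

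**Figure D3:**
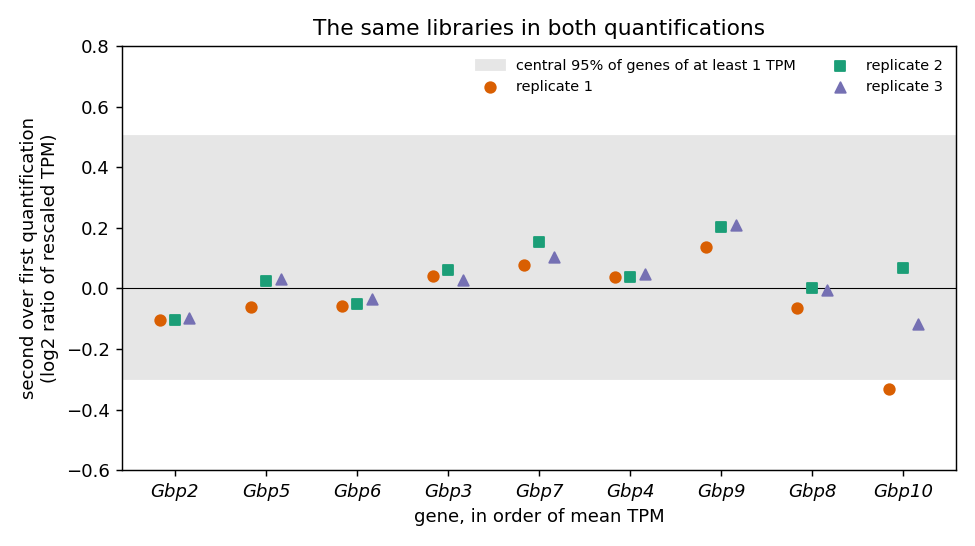
Log2 ratio of second over first quantification for each gene (vertical, rescaled TPM) in replicates 1, 2 and 3. The grey band is the central 95% of genes of at least 1 TPM, each taken as its mean over the 3 libraries. Gbp10 in replicate 1, at -0.33, is the point outside the band, while the mean of Gbp10, at -0.13, lies inside it. Single libraries can spread more than means, and Gbp10 is not among the genes of the band.

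Sequence shared between the genes varied widely. Of all stretches of 31 bases in the most abundant complete coding transcript of each gene, Gbp5 shared 0.671% with another gene, Gbp2 4.91% and Gbp3 7.05%. Gbp7 shared 14.8%, Gbp9 21.2%, Gbp4 22.6% and Gbp8 35.0%. Gbp10 shared 88.8% and Gbp6 94.4%. The posterior SD of the expected count in the authors' table was 0 for Gbp2 and Gbp5 and between 4.03% and 5.09% of the count for Gbp10. For Gbp6, which shares still more of its sequence, it was between 0.11% and 0.17% of the count. In counts it was larger for Gbp6, at 36.4, 58.3 and 21.3, than for Gbp10, at 17.8, 15.1 and 12.2.

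Much of the sharing of Gbp6 and Gbp10 was with Gm43302, annotated as a protein-coding gene of 1 transcript at chromosome 5, 105214907 to 105293695, minus strand. Its last exon covers the last exon of Gbp10, and its other exons lie in Gbp6. It held 93.9% of the 31-base stretches of Gbp6 and 84.3% of those of Gbp10. Gm43302 had 0.26, 0.28 and 0.10 TPM, from 48.8, 140 and 29.2 expected counts, against 22721, 33630 and 19376 for Gbp6. Few reads were thus assigned to the joined transcript. The values of Gbp6 and Gbp10 depend on how reads of shared sequence were divided. Their sum differed between second and first quantification by -0.05 (log2 ratio of rescaled TPM). Gbp6 made up nearly all of this sum and had a ratio of -0.05 alone. The sum thus cannot show how reads were divided between Gbp6 and Gbp10.

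Gbp7 contains the processed pseudogene Gm43802 in its last exon, at chromosome 3, 142547882 to 142548518, on the same strand. Gm43802 had 16.4, 16.1 and 11.6 TPM. On TPM it was lowest in replicate 3 where the members were lowest in replicate 2, but on CPM the members showed no common direction between these replicates. The sum of both genes had a ratio of 0.20 against 0.11 for Gbp7 alone. Gbp4, Gbp8 and Gbp9 share a first exon in the annotation. The transcript Gbp8-201, which spans 125 kb, starts with 61 bases of the first exon of Gbp4, and Gbp9-202 starts with 60 bases of it. Reads in that exon can belong to any of the 3 genes.

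Transcripts within each gene were described as a share of the gene's TPM. Gbp2 came almost wholly from 1 coding transcript, Gbp2-201, at 99.9% ± 0.0339. Gbp3 was divided between the coding transcripts Gbp3-202 at 72.8% ± 2.69 and Gbp3-203 at 23.2% ± 3.69. Gbp7 was divided between Gbp7-201 at 77.8% ± 3.88 and Gbp7-202 at 22.2% ± 3.88, both coding. In Gbp5, Gbp5-201 held 88.4% ± 1.44 and Gbp5-202, annotated as a target of nonsense-mediated decay, 10.2% ± 0.223. Nonsense-mediated decay removes transcripts with an early stop codon.

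Gbp4 and Gbp6 had much larger shares of such transcripts. In Gbp4 the leading transcript was Gbp4-202, annotated as a target of nonsense-mediated decay, with 52.8%, 49.5% and 49.0% of the gene's TPM in the first quantification (50.4% ± 2.10). The second quantification gave it 45.2%, 43.1% and 43.6%. The full-length coding transcript Gbp4-201 held 10.9%, 11.1% and 12.5% in the first quantification. A short coding transcript of 709 bases, Gbp4-203, held 31.6% ± 2.84. Gbp4-202 led in every library and both quantifications.

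Gbp4-201 and Gbp4-202 differ at a splice site. Gbp4-201 has 29 coding bases that Gbp4-202 lacks, at chr5:105136810-105136838 (mm10, minus strand). They are in capitals, with 20 bases of the Gbp4-201 transcript on each side.
Gbp4-201: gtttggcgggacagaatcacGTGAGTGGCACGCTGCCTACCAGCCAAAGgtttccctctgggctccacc
The stretch begins with GT, the letters of a splice donor, and its length is not a multiple of the codon length. Among Gbp4 transcripts annotated across this site, 1 lacks the stretch and 3 hold it. The transcript that lacks it held 82.6%, 81.0% and 76.7% of their TPM in the first quantification (80.1% ± 3.07). In the second it held 79.8%, 78.7% and 73.4% (77.3% ± 3.44).

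In Gbp6, Gbp6-203 is annotated as a target of nonsense-mediated decay and held 31.1%, 31.8% and 32.6% of the gene's TPM in the first quantification (31.8% ± 0.769). It held 22.0%, 21.6% and 22.2% in the second. It lacks a coding exon of 128 bases that Gbp6-201 has, at chromosome 5, 105288927 to 105289054. The coding transcript Gbp6-201 led with 67.4% ± 1.37 in the first quantification. Per library, both shares varied less than the level of the gene.

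**Figure D4:**
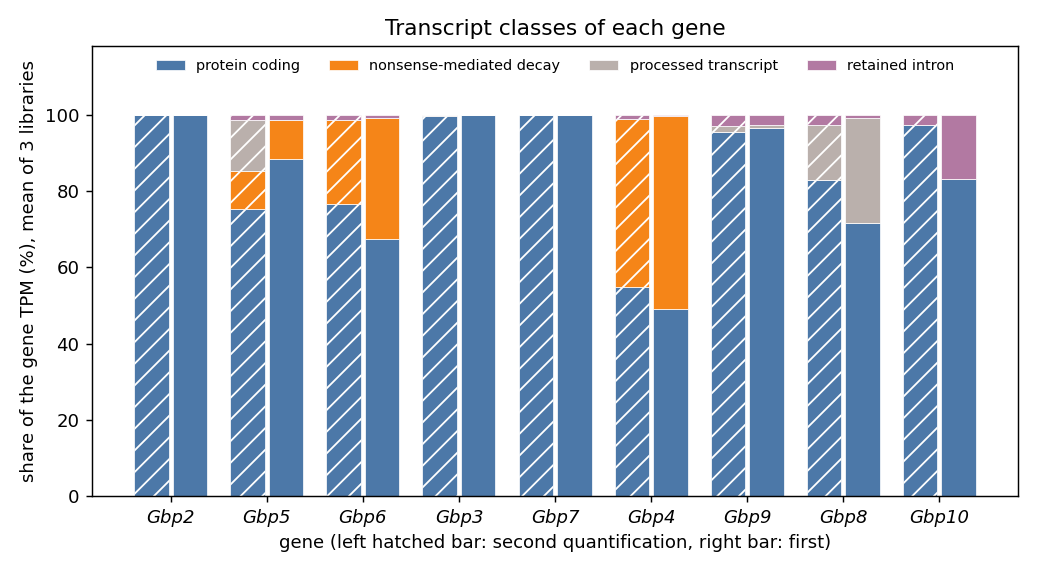
Share of each gene's TPM by annotated transcript class (vertical, percent, mean of 3 libraries), with the second quantification as the left hatched bar and the first as the right bar. Transcripts annotated as targets of nonsense-mediated decay make up 44.0% and 50.4% of Gbp4 and 21.9% and 31.8% of Gbp6 in the second and first quantification.

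The quantifications differed more in transcripts than in genes. Gbp9-202, which begins in the exon shared with Gbp4, had 30.8%, 43.1% and 36.8% of the TPM of Gbp9 in the second quantification, against 0%, 4.62% and 0% in the first. Gbp5-204, a noncoding transcript, had 7.43%, 17.8% and 14.2% in the second quantification, against 0.0340%, 0% and 0% in the first. Gbp8-202 had 9.62%, 22.1% and 14.6% in the second, against 0% in every library of the first. Even so, the leading transcript of every member was the same in both. For Gbp9 that was Gbp9-201, at 58.6% ± 6.11 in the second quantification and 95.1% ± 2.17 in the first.

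In transcripts with a retained intron, replicate 3 stood apart rather than replicate 1. They made up 0.146%, 0.107% and 1.17% of the TPM of Gbp4 in replicates 1, 2 and 3. In Gbp5 they made up 0.665%, 0.520% and 2.97%, and in Gbp9 1.66%, 1.12% and 5.54%. In Gbp6 they made up 0.415%, 0.375% and 1.51%, and in Gbp8 0.379%, 0.929% and 1.66%. Replicate 3 was the highest in 5 of 5 members that reached 1 TPM and have such a transcript, against 78.9% of 5281 genes scored, so the members did not differ from genes at large in this. The medians over all scored genes were 1.22%, 0.997% and 4.75%. Beside this, the nuclear RNAs Malat1, at 191, 133 and 952 TPM, and Neat1, at 14.3, 10.9 and 55.7 TPM, were highest in replicate 3. Their part in the result was not tested.

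**Figure D5:**
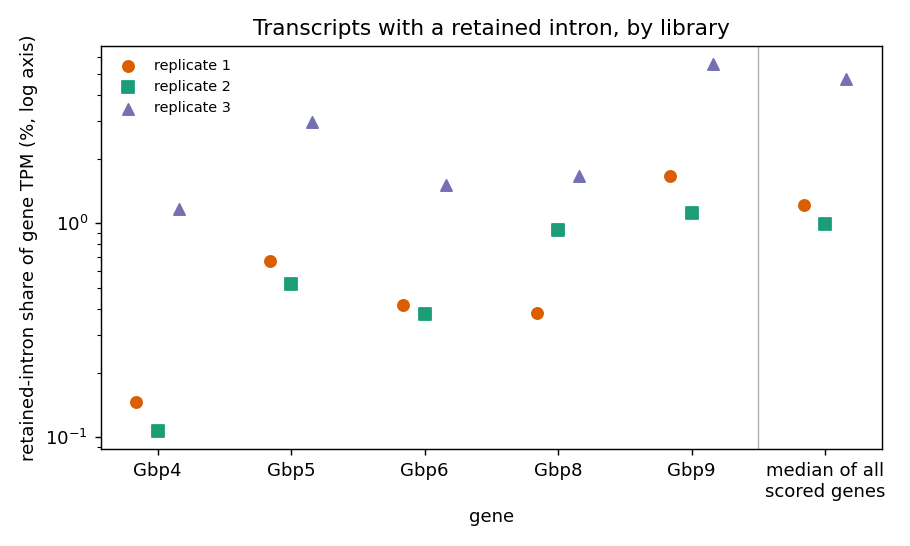
Share of gene TPM from transcripts with a retained intron (vertical, percent, log axis) in replicates 1, 2 and 3 for 5 genes, and the median of all scored genes. Replicate 3 is the highest point in each column, from 1.17% for Gbp4 to 5.54% for Gbp9.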

How the data were processed

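Total RNA of 3 libraries was analysed as 1 group. The gene table and first transcript table gave expected counts, TPM, a posterior SD of the count and an isoform percent, per the file headers. The estimated counts and TPM of the second transcript table, deposited per transcript, were summed per gene here. The first tables were derived from an alignment file and the second from reads, on mm10 with GENCODE release M21, per the deposited notes, with quantifiers not given in the sources used here. Rows that name no gene (0.350%, 0.169% and 0.168% of counts in replicates 1, 2 and 3) were left out.

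Expected counts were rounded to whole numbers and scaled by TMM (edgeR 4.0.16, R 4.3.3), with DESeq2 1.42.0 size factors as an alternative. Genes that reached 10 counts in any library entered the chi-square test, which had 2 degrees of freedom for 3 libraries and covers counting error only. It was tested on simulated counts drawn with counting error only. The simulation therefore cannot show how the test behaves where libraries spread more widely. Reads without molecular identifiers are not independent molecules. Transcript shares and retained-intron shares are shares of the summed TPM of a gene's transcripts. Coding sequences were aligned with Biopython 1.88. Figures were drawn with matplotlib 3.10.9, and other steps ran in Python 3.11.15 with scipy 1.17.1, pandas 2.3.3 and numpy 2.4.6.

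The members and all lists were chosen with earlier results of these data known. Named are all members, the highest and the lowest gene of each list, the other family genes, and the 3 genes nearest in profile. A gene that this rule picks and a further motif searched are not reported here. The motifs, Gm43302, Gm43802, Malat1 and Neat1 were chosen after the data were seen. Alternatives were other scalings, filters, thresholds and pseudocounts, the second quantification and leaving out each library.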

Additional observations from a re-analysis of the deposited data

How the results depend on the processing

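Without replicate 1 the members called different between libraries numbered 5, and without replicate 2 or replicate 3 they numbered 9. Of all tested genes, 57.1% were called without replicate 1, 52.5% without replicate 2 and 54.0% without replicate 3. With all libraries 72.0% were called. All 9 members were highest in replicate 1 under every scaling run, and the median log2 difference of replicate 1 ran from 0.48 on rescaled TPM to 0.75 on deposited TPM with a pseudocount of 0.1. The same settings moved the median of all tested genes to -0.10 and 0.12. The summed TPM was 367 in the second quantification and 2578 on rescaled TPM, and the median member stood at 24.1 and 154 TPM in these, against 45.9 TPM as deposited. The share of the sum from chromosome 3 was 71.4% on expected counts, against 73.8% on TPM. The median share of the leading transcript was 67.5% in the second quantification and 74.9% to 76.8% when 1 replicate was left out, against 77.8% with all. Gbp10 reached 1 TPM in every library on rescaled TPM or without replicate 2. Gbp10 averaged 1.095 TPM without replicate 1 and 0.783 TPM in the second quantification, against 1.95 TPM as deposited. The cause of the moved values was not tested. No paired analysis was possible because the labels give 1 group. Gbp10 had the fewest expected counts of the members, at 240 to 443, and shared 88.8% of its 31-base stretches with another gene. The part of read depth and of shared sequence in its values was not tested.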
